A study of Oryza sativa with 12 samples.

Results

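The heat shock genes of the rice shoot apical meristem (SAM) were compared between a myb110 mutant and the wild type. Members were loci whose description in either deposited table held the words heat shock, heat stress transcription factor or chaperone protein ClpB, in any case. This gave 178 loci of the 38867 rows of the SAM table. The tables of the 2 tissues describe the same loci differently: the rule matched 91 rows by the SAM description and 153 by the blade description, and 66 loci by both. Of the 178 loci, 35 were small heat shock proteins (HSP), 30 HSP70, 8 HSP90, 4 HSP101 or other ClpB proteins and 26 heat stress transcription factors (HSF). A further 61 formed a J-domain class, taken by words such as DnaJ or heat shock protein binding, so not all need hold a J domain. Another 7 formed a co-chaperone class, which also holds HSF-binding proteins, and 7 fell in none of these classes.

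The myb110 group held 3 libraries of the mutant SAM, and the WT group 3 libraries of the SAM of plants with an intact MYB110 gene. The series places MYB110, a MYB transcription factor, in the control of flowering time. Each library was made from a pool of 20 field-grown plants taken 1 month after transplanting, so the spread between libraries is that between pools. The labels name no heat treatment, and the kind of myb110 allele is not given in the sources used here. Leaf blade values are not analysed here, and the tissue of the table used rests on its name.

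As background, heat shock proteins keep other proteins folded. HSFs bind heat shock elements in promoters and switch these genes on when unfolded proteins accumulate, and class B factors without an activation domain mostly repress. Small HSPs hold unfolding proteins in large complexes without using ATP. HSP70 then refolds them in cycles driven by ATP and started by J-domain partners, and HSP90 completes the folding of signalling proteins such as kinases and receptors. HSP101, the cytosolic ClpB protein, pulls proteins out of aggregates together with HSP70 and is needed for heat tolerance in plants. Many of these genes have cognate copies that are expressed without heat, above all in growing tissue.

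Depth ran from 14112966 to 18896372 deposited counts per library, and the filter on low counts left 23167 genes. The meristem gene OSH1, a knotted-type homeobox factor that marks the rice SAM, was present in both genotypes, at 238 ± 9.44 CPM (counts scaled to the library total) in myb110 and 254 ± 3.76 CPM in WT (SD, n = 3 each). It passed as slightly lower in myb110, by 0.09 ± 0.03 on the log2 scale (edgeR, adjusted p = 0.0337), a call lost without myb110 library 2 or 3 or WT library 2 or 3 (adjusted p = 0.227, 0.119, 0.105 and 0.0691, within a range of 0.0123 to 0.228). Of 7 tested meristem markers 1 rose and OSH1 fell, or 14.3% each way, against 10.9% and 11.7% of all tested genes. Neither marker passed by DESeq2 or limma. The rise was lost without myb110 library 1 or 2 or WT library 1. The summed level of the meristem list was 553 ± 14.2 CPM in myb110 and 549 ± 6.32 CPM in WT (exact two-sided permutation p = 0.8). Of 7 tested markers of lateral organ primordia 2 rose and 2 fell, or 28.6% each way, against the same shares of all tested genes. With any single library left out, 0 to 1 rose, and 0 to 1 fell except without WT library 2, where 2 fell. Their summed level was 97.3 ± 1.13 CPM in myb110 and 95.96 ± 0.612 CPM in WT (exact two-sided permutation p = 0.2). Chlorophyll a-b binding protein genes, markers of green leaf cells, were lower in myb110 for 11 of 12 tested loci, and their summed level ran from 266 to 280 CPM in the myb110 libraries, against 783 to 852 CPM in the WT libraries. No locus of this list was at 0. In such whole-tissue samples, fewer cells of a type and less RNA per cell cannot be told apart. No row of the table was named MYB110, so the mutated gene was not checked here.

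Of the 178 loci, 145 had enough counts to be tested. Among them 16 rose and 38 fell in myb110 (edgeR's quasi-likelihood test, Benjamini-Hochberg adjusted p below 0.05). Over all tested genes 22.6% passed, 10.9% higher and 11.7% lower in myb110, so the share of heat shock loci that rose, 11.0%, was near the background and the share that fell, 26.2%, was above it. The median log2 change was -0.07 over the tested members, against 0.00 over all tested genes. Most changes were small: 8 of the 54 called members changed at least 1.5-fold, against 1555 of the 5233 called among all tested genes. The genotypes did not overlap in CPM for 77 of 145 members, where 36.1% of all tested genes had no overlap. Counts were not whole in at least 1 library for 43 of the 178 loci, among them 21 of the 54 called, so reads of these loci may be shared with copies. The call held in all 15 alternative settings for 29 of the 54. Among abundant genes, averaging at least 10 CPM, 14 members rose and 32 fell of 104, where 13.6% of all such genes rose and 13.6% fell. The part of the lower chlorophyll-binding markers in these counts was not tested.

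**Figure D1:**
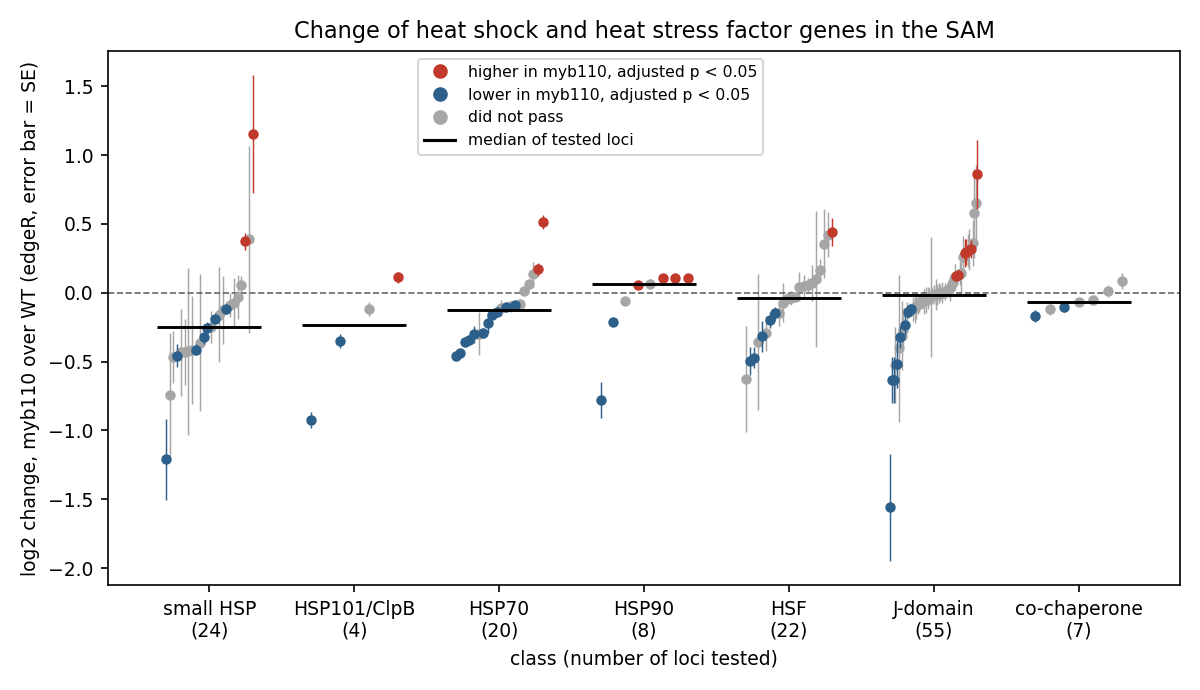
Log2 change of each tested locus (myb110 over WT, edgeR, error bars are SE) by class, with red for loci that passed higher in myb110, blue for loci that passed lower, grey for loci that did not pass and a black bar for the class median. Medians lay below 0 in every class but HSP90, where 4 loci passed slightly above 0 and 2 below.

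The 5 main classes did not share 1 pattern. Over all tested genes 10.9% rose and 11.7% fell. Of 24 tested small HSPs, 2 rose and 7 fell, or 8.33% and 29.2%, and the median log2 change was -0.25. Of the ClpB loci, 1 rose and 2 fell of 4, or 25% and 50%, with a median of -0.23. Of the HSP70 loci, 2 rose and 11 fell of 20, or 10% and 55%, with a median of -0.13. HSP90 went the other way by count, with 4 higher and 2 lower of 8, or 50% and 25%, and a median of 0.06. Its risers include HSP81-2 and both HSP81-3 loci, near neighbours whose counts were not whole, so they may not be separate measurements. Of 22 tested HSFs, 1 rose and 5 fell, or 4.55% and 22.7%. Their median of -0.04 was the nearest of the 5 classes to that of all tested genes.

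Summed over a class, the transcript level gives weight to the abundant members. HSP70 transcripts summed to 12481, 12244 and 12185 CPM in the myb110 libraries, against 16065, 16021 and 15666 CPM in the WT libraries. This was 22.7% lower in myb110, and the genotypes were well apart. HSP90 transcripts summed to 10918, 10929 and 10814 CPM in the myb110 libraries, against 10559, 10508 and 10376 CPM in the WT libraries, which was 3.87% higher in myb110 without overlap. The small HSP sum was 909 ± 19.6 CPM in myb110 and 1039 ± 24.4 CPM in WT, 12.5% lower in myb110. The ClpB sum was 275.6 ± 2.56 CPM in myb110 and 319.7 ± 2.16 CPM in WT, 13.8% lower. It was not computed without HSP101 Os05g0519700, whose log2 change was -0.93, against a class median of -0.23. The HSF sum was 726 ± 12.3 CPM in myb110 and 763 ± 2.83 CPM in WT, 4.82% lower (SD, n = 3 each). For each of these 5 sums the genotypes did not overlap, and the exact two-sided permutation p was 0.1, the smallest that 3 against 3 libraries allow.

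The classes therefore stood in another proportion to each other. In CPM, which are not scaled for length, HSP70 transcripts were 1.14, 1.12 and 1.13 times HSP90 transcripts in the myb110 libraries, against 1.52, 1.52 and 1.51 times in the WT libraries. The difference in this ratio was -0.43 on the log2 scale (exact two-sided permutation p = 0.1, the smallest possible, n = 3 each). It was also below 0, at -0.22, with the most abundant HSP70 gene left out. The ratio to HSP90 was lower in myb110 by the same test for small HSPs, with a difference of -0.25 on the log2 scale, for ClpB proteins, with -0.27, and for HSFs, with -0.13. For ClpB it was not computed without HSP101, the locus of that class with the largest fall. These ratios do not depend on how the libraries were scaled, and 6 of them were computed.

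**Figure D2:**
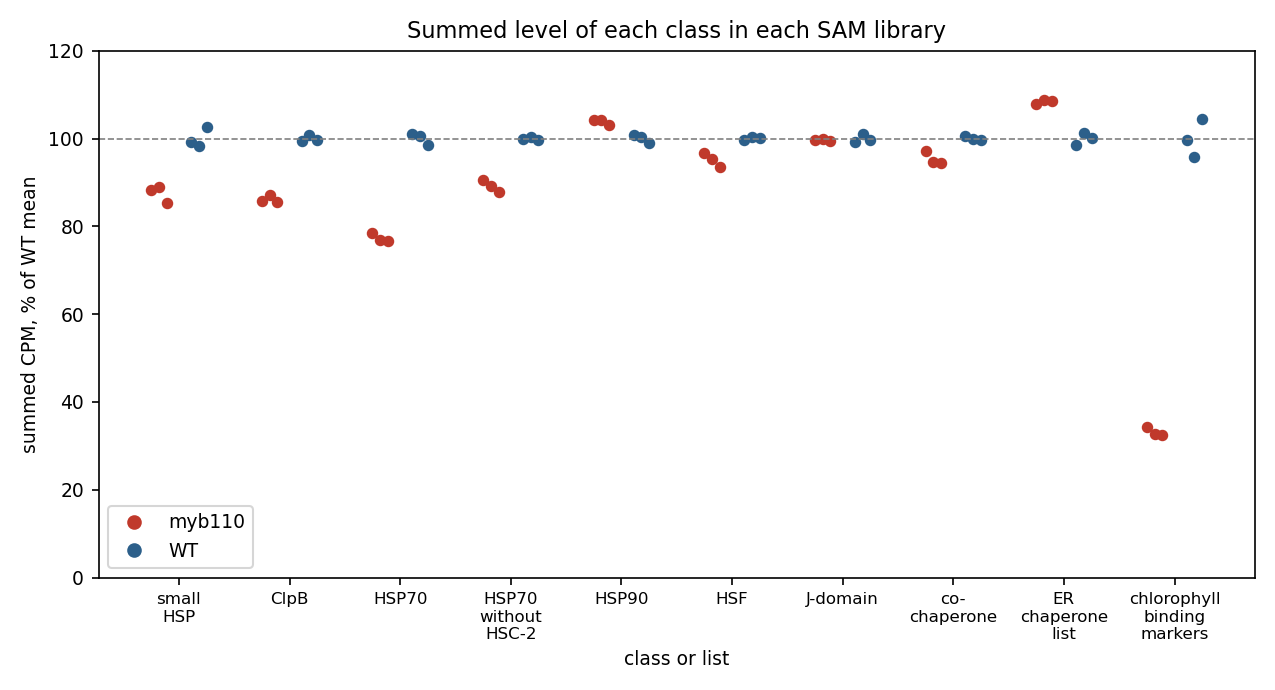
Summed CPM of each class or list in each library as a percentage of its WT mean, with myb110 libraries in red left of WT libraries in blue. HSP70 lay lowest among the heat shock classes in myb110, HSP90 and the list of endoplasmic reticulum (ER) chaperones lay slightly above their WT libraries, and the chlorophyll-binding markers lay lowest of all, at 266 to 280 CPM in myb110 against 783 to 852 CPM in WT.

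Among the regulators, 13 were class A factors, a class that includes activators of heat shock genes. Of these 13 factors, 1 rose and 3 fell, or 7.69% and 23.1%, against 10.9% and 11.7% of all tested genes. HSFA3 Os02g0527300, which in Arabidopsis acts downstream of DREB2A in the drought and heat response, stood at 15.4, 19.04 and 16.9 CPM in the myb110 libraries, against 12.96, 12.75 and 12.1 CPM in the WT libraries. All myb110 libraries were above all WT libraries, and HSFA3 rose by 0.44 ± 0.10 on the log2 scale (SE, adjusted p = 0.00161). HSFA2D Os03g0161900 stood at 19.97, 18.97 and 14.2 CPM in the myb110 libraries, against 25.5, 24.0 and 24.9 CPM in the WT libraries. Its counts were lower in every myb110 library, and it fell by 0.50 ± 0.10 (adjusted p = 0.000266). On the deposited FPKM values, which are scaled for length, this call was lost (limma, adjusted p = 0.0824 and 0.0875 with pseudocounts 1 and 0.1, the highest of a range that began at 1.76e-06).

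The sole class A1 factor, HSFA1 Os03g0854500, whose relatives in Arabidopsis and tomato act as master regulators of the heat response, averaged 83.2 ± 4.86 CPM in myb110 and 92.4 ± 5.03 CPM in WT. It fell by 0.15 ± 0.05 (adjusted p = 0.0217), but its libraries overlapped. Its call was lost without myb110 library 2 or 3 or WT library 1 or 2, with adjusted p of 0.175, 0.0515, 0.117 and 0.102, within a range of 0.00389 to 0.175 over the alternatives. DESeq2 and both limma fits lost the call too (adjusted p = 0.0666, 0.0973 and 0.102). HSFA5 Os02g0496100 fell by 0.31 ± 0.11 (adjusted p = 0.0389), and lost its call without myb110 library 2 or 3 or WT library 2 or 3, with adjusted p of 0.150, 0.0753, 0.131 and 0.0936, within a range of 0.0358 to 0.150. HSFA5 also lost its call by DESeq2 and both limma fits (adjusted p = 0.119, 0.0679 and 0.0656). It lies in a stretch where 10 of the 20 nearest tested loci changed at least 2-fold, as described with the HSP70 genes.

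Of the 9 factors counted as class B, 8 were tested, of which 2 fell, or 25%, against 11.7% of all tested genes. The 9 include Os01g0897100, which has no symbol to give its class and was placed in B by default. None rose by edgeR, where 1 had an unadjusted p below 0.05 with a higher level in myb110, and 0 rose by DESeq2 or limma. HSFB2B Os08g0546800, of the repressor type, stood at 29.8, 31.4 and 28.1 CPM in the myb110 libraries, against 45.8, 36.6 and 41.6 CPM in the WT libraries. The groups did not overlap and the WT libraries were more spread out. It fell by 0.47 ± 0.08 (adjusted p = 8.03e-06). HSFB4D Os03g0366800 fell by 0.20 ± 0.06 (adjusted p = 0.0129), and lost its call without myb110 library 3 (adjusted p = 0.0975) or WT library 3 (adjusted p = 0.0707), within a range of 0.00937 to 0.0975. The 2 factors with the highest FPKM did not pass: HSFA2C Os10g0419300 averaged 149.6 ± 1.58 CPM in myb110 and 153 ± 5.64 CPM in WT, and HSFB2C Os09g0526600 averaged 109 ± 4.02 CPM in myb110 and 112 ± 4.6 CPM in WT. Of the 4 class C factors only HSFC2A Os02g0232000 had enough counts, and it did not pass (adjusted p = 0.671). The number of HSFs that fell was 2 without myb110 library 3 and 3 without myb110 library 2, WT library 2 or WT library 3, against 5 with all libraries. The number that rose was 2 without WT library 2, against 1.

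Small HSPs were led by HSP18.0 Os01g0184100, a class II small HSP, at a mean of 402 FPKM over the 6 libraries. It stood at 308, 312 and 290 CPM in the myb110 libraries, against 352, 326 and 361 CPM in the WT libraries. The groups did not overlap and HSP18.0 fell by 0.19 ± 0.03 on the log2 scale (adjusted p = 0.000207). HSP17.9A Os03g0266300, a member of the Hsp20 family, stood at 109, 112 and 107 CPM in the myb110 libraries, against 149, 145 and 143 CPM in the WT libraries. Every myb110 library was well below every WT library, and it fell by 0.41 ± 0.04 (adjusted p = 6.05e-11). The neighbouring class I genes HSP17.7 Os03g0267200 and HSP18.1 Os03g0267000 also fell, by 0.46 ± 0.08 and by 1.21 ± 0.29 (adjusted p = 5.23e-05 and 0.00187). HSP18.1 was scarce, at 1.22 ± 0.104 CPM in myb110 and 2.84 ± 0.119 CPM in WT, and both genes had counts that were not whole, so reads shared with copies cannot be told apart. HSP17.4 Os03g0266900, whose locus number lies between those of HSP17.9A and HSP18.1, averaged 33.5 FPKM over the 6 libraries and did not pass.

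Of the class III and organelle members, HSP18.6 Os02g0782500 fell by 0.32 ± 0.05 (adjusted p = 6.88e-07). The mitochondrial HSP24.1 Os02g0758000 stood at 110, 112 and 99.97 CPM in the myb110 libraries, against 124.6, 124.7 and 134 CPM in the WT libraries, and fell by 0.26 ± 0.04 (adjusted p = 2.18e-05). A chloroplast small HSP, Os10g0159700, went the other way. It stood at 55.9, 60.8 and 63.7 CPM in the myb110 libraries, against 42.1, 50.04 and 47.1 CPM in the WT libraries. All myb110 libraries were higher, and it rose by 0.37 ± 0.06 (adjusted p = 1.36e-05).

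Next to it, Os10g0159600, which the table names HSP21 but describes as a sheath-binding protein, fell by 0.12 ± 0.04 (adjusted p = 0.0200). Its call was lost without myb110 library 1 or 2 or WT library 2 or 3, with adjusted p of 0.0610, 0.0739, 0.0515 and 0.0719, within a range of 0.0181 to 0.0739. By DESeq2 it was also lost (adjusted p = 0.0525). The rise of Os10g0437900, described as like a 23.2 kDa HSP, was the largest of the class, at 1.15 ± 0.43 (adjusted p = 0.0477). It had 66 counts in myb110 and 31 in WT over 3 libraries each. It lost its call without any single library but WT library 1, with adjusted p of 0.171, 0.0970 and 0.0957 without myb110 library 1, 2 or 3 and 0.142 and 0.218 without WT library 2 or 3, within a range of 0.0202 to 0.218. The call was also lost by DESeq2 (adjusted p = 0.109), and by edgeR with no filter, no robust dispersion or the library number as a block (adjusted p = 0.0666, 0.0579 and 0.0565). The number of small HSPs that rose was then 1, against 2.

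HSP70 transcripts came mostly from 1 gene. The heat shock cognate HSC-2 Os11g0703900, a form expressed without heat, averaged 4213 FPKM over the 6 libraries and ranked 5 among the 38867 rows of the table. It made up 68.1% to 72.8% of the summed HSP70 CPM. It stood at 8520, 8344 and 8346 CPM in the myb110 libraries, against 11694, 11628 and 11303 CPM in the WT libraries. The genotypes were far apart relative to their spread, with means of 8403 ± 101 CPM in myb110 and 11542 ± 209 CPM in WT (SD, n = 3 each), and HSC-2 fell by 0.46 ± 0.02 on the log2 scale (adjusted p = 5.27e-23). Without HSC-2 the HSP70 sum was 3900 ± 61.2 CPM in myb110 and 4376 ± 15.1 CPM in WT, which was 10.9% lower in myb110.

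Some loci lay in stretches of the genome where neighbours changed strongly. Among the 20 nearest tested loci, 4 changed at least 2-fold around HSC-2, and 7 around Os11g0696600. At least 3 such neighbours were found around 5.36% of 22357 loci and around 6 of the 145 members. Their part in the changes of these genes was not tested. Os11g0696600, with an Hsp70 domain in its blade description, was the HSP70 locus with the largest rise. It stood at 77.0, 75.4 and 77.8 CPM in the myb110 libraries, against 55.5, 53.7 and 52.1 CPM in the WT libraries, and rose by 0.51 ± 0.05 (adjusted p = 2.15e-10).

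Several other HSP70 genes with no compartment named also fell. Os05g0460000, named HSP70-4, stood at 343, 327 and 319 CPM in the myb110 libraries, against 447, 439 and 457 CPM in the WT libraries, and fell by 0.44 ± 0.03 (adjusted p = 3.35e-15). Os01g0840100, also named HSP70-4, averaged 339 ± 4.95 CPM in myb110 and 431 ± 9.31 CPM in WT, and fell by 0.35 ± 0.03 (adjusted p = 6.87e-13). Os03g0276500, described as a cognate HSP70, averaged 445 ± 16.7 CPM in myb110 and 569 ± 13.4 CPM in WT, and fell by 0.36 ± 0.03 (adjusted p = 4.63e-13). The libraries of the 2 genotypes did not overlap for any of these 3 genes, and their counts were whole in every library. HSP70-8 Os03g0218500 fell by 0.30 ± 0.06 (adjusted p = 0.00045). HSP70-14 Os01g0180800, described as a 70 kDa protein 15, fell by 0.16 ± 0.02 (adjusted p = 1.69e-06), and its counts were not whole in 4 libraries. HSP70-17 Os02g0710900 did not pass (log2 change 0.06 ± 0.04, adjusted p = 0.291).

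HSP70 genes of the organelles differed among themselves. The stromal chloroplast HSP70 Os05g0303000, which helps to import proteins, averaged 146 ± 4.4 CPM in myb110 and 178 ± 2.77 CPM in WT, and fell by 0.29 ± 0.04 (adjusted p = 2.89e-08). The 3 mitochondrial HSP70 genes also fell, by 0.09 to 0.14 on the log2 scale, and each of their calls was lost under 2 to 6 of the 15 alternatives. The ER form BIP1 Os02g0115900, the main luminal HSP70, stood at 667, 649 and 621 CPM in the myb110 libraries, against 632, 644 and 644 CPM in the WT libraries. These groups overlapped, and BIP1 did not pass (log2 change 0.01 ± 0.03, adjusted p = 0.791). The number of HSP70 loci that fell was 7 without WT library 2, against 11 with all libraries, and the number that rose was 1 without myb110 library 1, against 2.

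**Figure D3:**
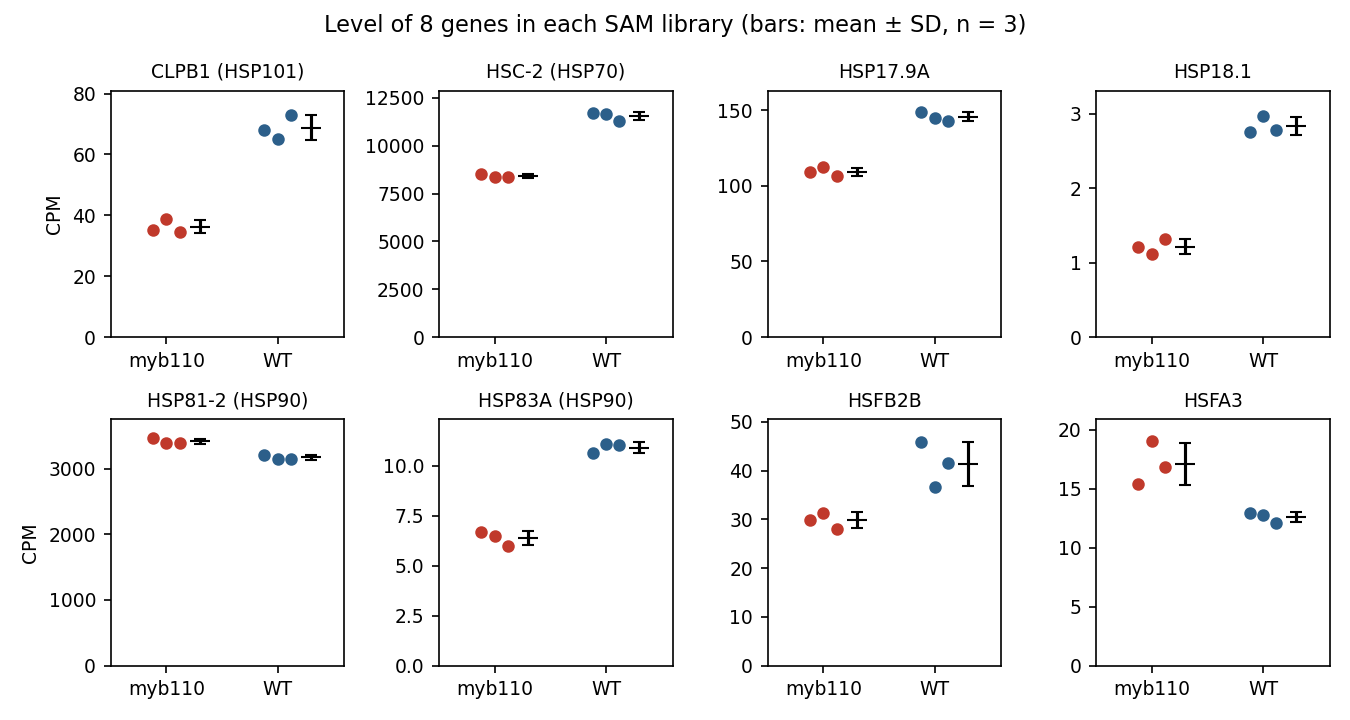
CPM of 8 genes in each library, with the mean and SD of 3 libraries beside the points and each axis starting at 0. The myb110 libraries lay below all WT libraries for CLPB1 (HSP101), HSC-2, HSP17.9A, HSP18.1, HSP83A and HSFB2B, and above them for HSP81-2 and HSFA3.

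J-domain proteins start the ATP cycle of HSP70 and deliver its clients. Of the 61 members of the J-domain class 55 were tested, and 6 rose and 8 fell. That is 10.9% higher and 14.5% lower, against 10.9% and 11.7% of all tested genes. The median of the class was -0.01 on the log2 scale. The summed level was 2008 ± 4.85 CPM in myb110 and 2013 ± 18.5 CPM in WT (exact two-sided permutation p = 0.8, n = 3 each). TTL1 Os05g0210600 rose by 0.32 ± 0.06 (adjusted p = 0.000213), Os02g0782300, the tested member with the second highest FPKM of the class, rose by 0.12 ± 0.03 (adjusted p = 0.00833), and Os07g0632600 rose by 0.13 ± 0.04 (adjusted p = 0.0139). The call of Os07g0632600 was lost without myb110 library 1 (adjusted p = 0.0502) or WT library 1 (adjusted p = 0.0723), within a range of 0.0115 to 0.0723. The largest rise was that of dnajb6-a Os01g0606900, at 0.86 ± 0.25 (adjusted p = 0.0102), and was lost without WT library 2 (adjusted p = 0.0997), within a range of 0.00410 to 0.0997. DNAJC8 Os03g0261500, the highest by FPKM, did not pass, at 177 ± 2.55 CPM in myb110 and 175 ± 4.07 CPM in WT.

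Among J-domain loci that fell, SPA Os03g0244000, described as a chloroplast protein, showed the largest fall, by 1.56 ± 0.39 (adjusted p = 0.00276). It was scarce, at 0.497, 0.697 and 0.635 CPM in the myb110 libraries, against 1.86, 2.05 and 1.54 CPM in the WT libraries, which did not overlap. The locus named dnaJ, Os11g0578100, fell by 0.32 ± 0.08 (adjusted p = 0.00229). GRV2 Os10g0575200, whose relative in Arabidopsis acts in endosome formation, fell by 0.12 ± 0.04 (adjusted p = 0.0148), and its call was lost without myb110 library 1 or 3 or WT library 2 (adjusted p = 0.0509, 0.0524 and 0.0573). On the deposited FPKM its log2 change was -0.04 (limma, adjusted p = 0.549 and 0.545 with pseudocounts 1 and 0.1), the highest of a range that began at 0.0134. The chloroplast DJA7A loci Os05g0333500 and Os05g0334000 had identical counts in every library, so they count as 1 measurement and the 8 falls hold 7. They fell by 0.63 ± 0.17 (adjusted p = 0.00573), which was lost without myb110 library 2 (adjusted p = 0.0518), within a range of 0.000334 to 0.0652. Both limma fits lost this call too (adjusted p = 0.0562 and 0.0652). The number of J-domain loci that fell was 5 by DESeq2 and 4 by both limma fits, and 5 without myb110 library 1 or 3 or WT library 3, against 8, and the number that rose was 3 without WT library 1, against 6.

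Of the 8 HSP90 loci 4 rose, all by small amounts, and these include the loci with the highest FPKM of the class. HSP81-2 Os09g0482100 stood at 3461, 3390 and 3393 CPM in the myb110 libraries, against 3209, 3149 and 3152 CPM in the WT libraries. The groups did not overlap, but the change was small, a rise of 0.11 ± 0.02 on the log2 scale (adjusted p = 1.68e-05). HSP81-3 Os09g0482400 averaged 2840 ± 31.3 CPM in myb110 and 2634 ± 47.0 CPM in WT, and rose by 0.11 ± 0.02 (adjusted p = 2.68e-05). The second HSP81-3 locus, Os09g0482600, rose by 0.06 ± 0.02 (adjusted p = 0.0435), and lost its call without myb110 library 1 or 2 or WT library 1 or 3, with adjusted p of 0.154, 0.215, 0.0663 and 0.140, within a range of 0.0142 to 0.215. The call was also lost by edgeR without robust dispersion or with the library number as a block (adjusted p = 0.0520 and 0.0593). These 3 loci are near neighbours, and their counts were not whole in all 6 libraries, so reads may be split between them and their separate values are uncertain. Endoplasmin Os06g0716700, the HSP90 of the ER, averaged 1014 ± 11.5 CPM in myb110 and 939 ± 21.3 CPM in WT, and rose by 0.11 ± 0.02 (adjusted p = 0.000241).

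The other HSP90 genes differed from these. HSP81-1 Os08g0500700 stood at 1137, 1158 and 1111 CPM in the myb110 libraries, against 1319, 1298 and 1336 CPM in the WT libraries, and fell by 0.22 ± 0.02 (adjusted p = 4.11e-10). HSP83A Os04g0107900, described in the blade table as similar to heat shock protein 82, averaged 13.8 FPKM over the 6 libraries, where HSP81-1 averaged 389 FPKM. It stood at 6.68, 6.48 and 5.98 CPM in the myb110 libraries, against 10.6, 11.1 and 11.0 CPM in the WT libraries. Both genes were lower in every myb110 library, and HSP83A fell by 0.78 ± 0.13 (adjusted p = 2.32e-05), with counts that were not whole in all 6 libraries. The chloroplast HSP90-5 Os08g0487800 and the mitochondrial HSP90-6 Os12g0514500 did not pass (adjusted p = 0.213 and 0.109), with log2 changes of 0.06 ± 0.04 and -0.06 ± 0.03.

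The co-chaperone class holds proteins that link or regulate these machines, and also HSF-binding proteins. It summed to 1067 ± 16.8 CPM in myb110 and 1118 ± 5.13 CPM in WT, 4.61% lower in myb110. The genotypes did not overlap (exact two-sided permutation p = 0.1, the smallest possible, n = 3 each). Of 7 tested loci, 2 fell, or 28.6%, against 11.7% of all tested genes. None rose by edgeR, with 0 at an unadjusted p below 0.05 and 0 by DESeq2 or limma. HOP Os02g0644100, which hands clients from HSP70 to HSP90, averaged 349 ± 8.23 CPM in myb110 and 365 ± 6.23 CPM in WT and did not pass (log2 change -0.07 ± 0.03, adjusted p = 0.0853), and neither did TDX Os02g0100300 (log2 change -0.05 ± 0.03, adjusted p = 0.213). PUB70 Os06g0163000, a U-box protein, fell by 0.17 ± 0.04 (adjusted p = 0.00297). Os09g0375100, described in the blade table as an HSF-binding protein, fell by 0.10 ± 0.04 (adjusted p = 0.0413). It lost its call without any single library but WT library 2, with adjusted p of 0.0587, 0.114 and 0.139 without myb110 library 1, 2 or 3 and 0.157 and 0.0720 without WT library 1 or 3, within a range of 0.0145 to 0.157. The call was also lost by DESeq2 (adjusted p = 0.0993) and by edgeR with the library number as a block (adjusted p = 0.0505). The number of loci of this class that fell was then 1, against 2.

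The disaggregase HSP101, listed as CLPB1 Os05g0519700, showed the largest fall among the ClpB proteins. It stood at 35.3, 38.8 and 34.7 CPM in the myb110 libraries, against 68.2, 65.0 and 73.1 CPM in the WT libraries. Every myb110 library was far below every WT library, with means of 36.3 ± 2.20 CPM in myb110 and 68.8 ± 4.05 CPM in WT (SD, n = 3 each). HSP101 fell by 0.93 ± 0.06 on the log2 scale, or by 47.3% (adjusted p = 3.18e-15), and its call held under all 15 alternatives. The mitochondrial CLPB3 Os02g0181900 stood at 61.7, 58.9 and 56.9 CPM in the myb110 libraries, against 71.2, 77.9 and 76.2 CPM in the WT libraries, and fell by 0.35 ± 0.05 (adjusted p = 1.77e-06). The chloroplast CLPB2 Os03g0426900 did not pass (log2 change -0.12 ± 0.05, adjusted p = 0.113).

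A second locus with the symbol CLPB1, Os02g0537400, described as ClpB1-like, was the ClpB gene with the highest FPKM. It averaged 123 ± 5.19 CPM in myb110 and 114 ± 3.59 CPM in WT, and rose by 0.11 ± 0.04 (adjusted p = 0.0409), with counts that were not whole in all 6 libraries. The call was lost without myb110 library 2 or 3 or WT library 1 or 3, with adjusted p of 0.152, 0.188, 0.0709 and 0.165, within a range of 0.0175 to 0.188, so that no ClpB locus then rose by edgeR, as with all libraries by DESeq2 or limma.

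Of the 7 loci outside these classes 5 were tested, and 1 fell, or 20%, against 11.7% of all tested genes. LPE1 Os12g0283900, a pentatricopeptide protein by its SAM description, fell by 0.32 ± 0.11 (adjusted p = 0.0275). Its call was lost without myb110 library 1 or 3 or WT library 1 or 2, with adjusted p of 0.0527, 0.160, 0.0663 and 0.0979, within a range of 0.0250 to 0.160. DESeq2 and both limma fits lost it as well (adjusted p = 0.0931, 0.0795 and 0.0785). Nkapl Os09g0455400 and an assembled gene with a heat shock protein-like description, the most abundant of this group, did not pass (adjusted p = 0.944 and 0.272).

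By the compartment that the descriptions name, over the small HSP, HSP70, HSP90 and ClpB classes, 5 of 8 mitochondrial loci fell, and the median log2 change was -0.12. None rose by edgeR, with 0 at an unadjusted p below 0.05 and 0 by DESeq2 or limma. Among 7 chloroplast loci 1 rose and 1 fell, with a median of -0.12. Of the 3 ER loci tested 1 rose, with a median of 0.11, and none fell by edgeR, with 0 at an unadjusted p below 0.05 and 0 by DESeq2 or limma. Loci with no compartment named, among them the cytosolic forms, had 7 rises and 16 falls among 37 tested, with a median of -0.22. Over all tested genes 10.9% rose and 11.7% fell. The summed ER HSP70 level was 667 ± 23.9 CPM in myb110 and 659 ± 8.41 CPM in WT (exact two-sided permutation p = 0.7, n = 3 each).

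Levels per length spread over a wide range. Mean FPKM over the 6 libraries was 100 or more for 22 of the 178 loci and below 1 for 40. HSC-2 stood above all others, followed by HSP81-3 Os09g0482400 at 1409 FPKM, HSP81-2 at 1365 FPKM and HSP81-3 Os09g0482600 at 1093 FPKM. The highest ClpB gene, ClpB1-like Os02g0537400, stood at 75.7 FPKM, the highest HSF, HSFA2C, at 98.9 FPKM, and the highest J-domain locus, DNAJC8, at 166 FPKM.

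Many loci were scarcely read in this tissue. Of the 33 loci with too few counts to test, 7 had 0 counts in all 6 libraries, which allows up to 0.0309 CPM (3 counts over the 6 libraries), 9 had 1 to 10 counts and 17 had more, up to 64. Small HSPs made up 11 of the 33, among them HSP16.6 Os01g0135800 with 2 counts in all and HSP23.2 Os04g0445100 with 1. HSP70 loci made up 10, including Os01g0688900, Os11g0187600 and Os11g0187700 with 0 counts, Os03g0276800 with 6 and Os03g0277300 with 15. The ER forms BIP2, BIP3 and BIP4 held at most 3 counts each. Among the factors, HSFC1A, HSFC1B, HSFC2B and HSFB1 were also too scarce to test.

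**Figure D4:**
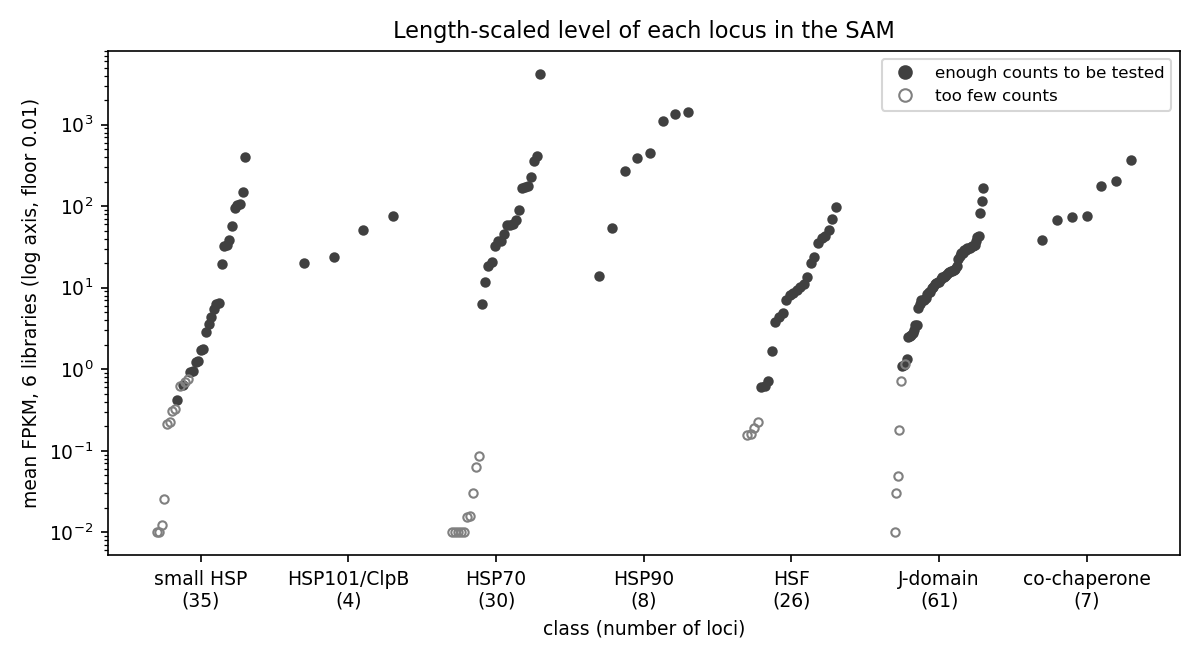
Mean FPKM over the 6 libraries of each locus by class, on a log axis with values under 0.01 drawn at 0.01, filled where counts sufficed for a test and open where they did not. HSC-2 stands at 4213 FPKM above the other HSP70 genes, the 8 HSP90 loci all lie above 10 FPKM, and small HSPs run from 402 FPKM down to 0.

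Other genes of protein folding were read from lists by their descriptions, without the members above. J-domain co-chaperones outside the rule had 4 rises and 5 falls among 38 tested. That is 10.5% higher and 13.2% lower, near the 10.9% and 11.7% of all tested genes. Here dnajb6-a Os03g0300600 averaged 177 ± 7.06 CPM in myb110 and 114 ± 3.02 CPM in WT and rose by 0.64 ± 0.04, and DNAJ1 Os03g0648400 rose by 0.12 ± 0.02. DJA6 Os04g0549600 averaged 557 ± 9.003 CPM in myb110 and 709 ± 17.4 CPM in WT and fell by 0.35 ± 0.02, and LDJ2 Os03g0787300 fell by 0.33 ± 0.03. The number of falls was 3 by DESeq2 and both limma fits, and 3 without myb110 library 2 or WT library 2.

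Among 19 tested loci of the ER chaperone list 5 rose, 1 fell and 13 did not pass, with a median log2 change of 0.09. That is 26.3% higher and 5.26% lower, against 10.9% and 11.7% of all tested genes. The list was taken by words such as disulfide isomerase, so not all need lie in the ER. It includes PTAC5 Os04g0514400 and SCO2 Os09g0458400, of which neither passed. PDIL2-3 Os09g0451500, a protein disulfide isomerase, rose by 0.24 ± 0.03 and the calreticulin CRO1 Os07g0246200 rose by 0.15 ± 0.02, at 1259 ± 11.2 CPM in myb110 and 1133 ± 21.1 CPM in WT. PDIL1-4 Os02g0100100 fell by 0.22 ± 0.05 (adjusted p = 0.000496). The summed level of the list was 4029 ± 14.1 CPM in myb110 and 3716 ± 50.6 CPM in WT, without overlap (exact two-sided permutation p = 0.1, the smallest possible, n = 3 each).

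Chaperonins, the barrel-shaped folding complexes, had 3 rises and 2 falls among 26 tested. Those shares were 11.5% and 7.69%, against 10.9% and 11.7% of all tested genes. The chloroplast subunits CPN60A1 Os12g0277500 and CPN60B1 Os06g0114000 fell by 0.37 ± 0.05 and by 0.21 ± 0.03, the Rubisco assembly factor RBCX2 Os07g0569600 rose by 0.92 ± 0.14, and CPN60I Os10g0462900 rose by 0.07 ± 0.02 (adjusted p = 0.0125), which was lost without myb110 library 1 (adjusted p = 0.0628) or library 2 (adjusted p = 0.0516). Both limma fits also lost the CPN60I call (adjusted p = 0.0616 and 0.0588). Among 14 tested HSP70 and HSP90 co-chaperones outside the rule, 1 rose and 2 fell, or 7.14% and 14.3%. Both BAG7 loci, Os06g0104400 and Os02g0105500, fell, by 0.21 ± 0.04 and 0.17 ± 0.03. BAG1 Os06g0126500 rose by 0.19 ± 0.07 (adjusted p = 0.0335), which was lost without myb110 library 2 or 3 or WT library 1 or 2 (adjusted p = 0.146, 0.0570, 0.0999 and 0.158). The BAG1 call was also lost by DESeq2 and both limma fits (adjusted p = 0.0942, 0.0772 and 0.0786).

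Of the Clp protease system 1 of 15 tested loci passed, or 6.67%, against 22.6% of all tested genes. CLPP2 Os02g0634500 fell by 0.22 ± 0.06 (adjusted p = 0.0105) and lost its call without myb110 library 2 (adjusted p = 0.0518) or 3 (adjusted p = 0.0512). Of 11 tested genes in a heat-responsive list, namely galactinol synthases, MBF1 and ascorbate peroxidases, 1 rose and 1 fell. That is 9.09% each way, where 10.9% of all tested genes rose and 11.7% fell. The list was taken by family words and is mostly ascorbate peroxidases, so not all of its genes need respond to heat. APX1 Os03g0285700, a cytosolic peroxidase that removes hydrogen peroxide, rose by 0.09 ± 0.02 (adjusted p = 0.000694). APX8 Os02g0553200 fell by 0.49 ± 0.17 (adjusted p = 0.0349), which was lost without myb110 library 1 or 3 or WT library 1 or 2 (adjusted p = 0.0980, 0.111, 0.190 and 0.0805). The APX8 call was also lost by DESeq2 and both limma fits (adjusted p = 0.0974, 0.0718 and 0.0781). MBF1C Os06g0592500, a heat-induced coactivator, stood at 123, 108 and 104 CPM in the myb110 libraries, against 127, 148 and 151 CPM in the WT libraries, which did not overlap. Its log2 change was -0.35 ± 0.09 (edgeR, adjusted p = 0.0517), so it did not pass, and its adjusted p ran from 3.96e-13 to 0.218 over the alternative settings. The number of genes of the heat-responsive list that fell was 2 with RLE scaling, no filter, the stricter filter and no robust dispersion. It was 0 without myb110 library 3 or WT library 2. The 1 tested DREB2 factor, a class that acts in drought and heat, did not pass.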

How the data were processed

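The series holds poly(A) RNA libraries of rice SAM and leaf blade, and 3 SAM libraries of each genotype were used. The submitters' processing notes name fastp, a read trimmer. Which aligner, counter, build and annotation were used is not stated in the sources used here, and counting is not stated to use strand, so overlapping and antisense genes are uncertain. The deposited values are estimated counts per gene, per the file headers, of which 12.3% to 13.2% per library held fractions of a count. A second set of deposited columns holds FPKM, a unit scaled for length and depth, per the file headers, with the lengths used not stated. SAM columns were matched by genotype and number. In all, 24 columns of per-sample values, among them all of the blade table, matched no label and were not used, and only the descriptions of the blade table were read.

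Estimated counts were rounded, and 23167 genes passed filterByExpr of edgeR at a minimum count of 10. The genotypes were compared with the quasi-likelihood test of edgeR (4.0.16, in R 4.3.3) with robust dispersion, TMM factors of 0.998 to 1.00 and no covariate. P-values were adjusted by Benjamini-Hochberg over these genes, with a threshold of 0.05. Positive log2 changes are higher in myb110, and errors beside them are standard errors. CPM used TMM-scaled totals over the kept genes. Class sums and their ratios were compared by exact two-sided permutation over libraries. Alternatives were DESeq2 (1.42.0), limma (3.58.1) on log2(FPKM + 1) and log2(FPKM + 0.1), other scalings and filters, and leaving out each library. The steps were tested on simulated counts. Libraries of 1 genotype correlated at 0.984 to 0.987 in log CPM, and libraries of different genotypes at 0.942 to 0.949. No 2 libraries of a genotype agreed within counting noise, and floors cover counting error only. P-values measure the spread between pools, not plants.

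Members, classes and lists were chosen with earlier results of these data known. Classes were read from descriptions. Genes were named by a rule: in each class the 3 with the highest mean FPKM, up to 8 that passed by lowest p with at least 2 CPM in a genotype, the largest rise and fall, HSFs of class A1, A2, B and C that passed, and from each list of other folding genes the 2 lowest p each way that passed. Cell type markers are given by count, with values for OSH1. Loci named as untested, the other members of the ClpB and HSP90 classes, HSFC2A, Os01g0897100, HSP17.4, HSP70-17 and MBF1C were named after their values were seen. Sequences and promoter motifs were not analysed here.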

Additional observations from a re-analysis of the deposited data

How the results depend on the processing

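Of 1063 comparisons of a named gene with an alternative setting, 962 stayed on the same side of the threshold and 101 lost the call. No gene that passed in either fit of a comparison changed sign. Signs of genes that passed in neither fit were not compared. The numbers of members that rose and fell, 16 and 38, were 7 and 21 of 70 tested with members taken from the SAM description alone, a choice made after seeing the data. Those shares, 10% and 30%, compare with 11.0% and 26.2% of 145. With 1 library left out, 11 to 15 members rose and 28 to 34 fell. The number of small HSPs that rose, 2, was 1 under DESeq2, with no filter, with a stricter filter (minimum count 30) and without robust dispersion, and 1 to 2 with 1 library left out. The number of ClpB loci that rose, 1, was 0 under DESeq2, both limma fits and without robust dispersion, and 0 to 1 with 1 library left out. HSP70 loci that rose, 2, were 1 under both limma fits and 1 to 3 with 1 library left out, and those that fell, 11, were 7 to 11. HSFs that fell, 5, were 3 under DESeq2, 2 under both limma fits and 2 to 5 with 1 library left out, and those that rose were 1 to 2. For these calls the cause was not tested. The log2 ratio of the J-domain sum was 0.0285 from FPKM and -0.00964 to 0.00317 with 1 library left out, and that of the remaining members was 0.00364 and -0.0470 to 0.0343, all near 0. The 6 ratios between class sums kept their sign from FPKM and with each library left out. Replicate numbers do not pair the libraries, since same-numbered libraries shared only a number (correlations of deviations -0.0469, -0.0407 and 0.0107). With the number as a replicate block, 14 members rose and 36 fell, and 1 small HSP rose. Without members in stretches of strong change, 15 rose and 36 fell. Blade values and promoter motifs were not run.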
